A study of Mus musculus with 4 samples.

Results

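Glycine tRNA fragments were the most abundant tRNA species in small extracellular vesicles of mouse plasma. They were read from the tRNA tables of 4 small RNA libraries as every entry named as a nuclear glycine tRNA gene copy, 27 of the 170 tRNA entries listed in at least 1 library. Of these 27, 22 were listed in all 4 libraries, 15 with the anticodon GCC and 7 with CCC. The other 5 entries, 4 with TCC and 1 with ACC, were listed in some libraries only. The mitochondrial glycine tRNA, mt-Tg, was listed in 0 libraries, while 10 of the 22 mitochondrial tRNAs were listed in at least 1.

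The libraries came from wild-type mice on a normal diet, 2 libraries taken 12 h after myocardial infarction surgery (MI, in which heart muscle loses its blood supply) and 2 taken 12 h after sham surgery. Vesicles were pelleted from blood by differential centrifugation, and each captured RNA molecule was tagged with a unique molecular identifier (UMI), so that a UMI counts a molecule once and a read counts every amplified copy of it. Whether the 2 replicates of a group were separate animals or pools is not labelled, so p-values reflect library-to-library spread alone, and this may be technical. The MI libraries held 14455043 and 11872840 reads and 487380 and 301642 tRNA UMIs, and the sham libraries held 24626952 and 12955563 reads and 971133 and 471056 tRNA UMIs. The tables list an entry from 10 UMIs on, and an unlisted entry, with 0 to 9 UMIs, was entered as 0.

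Transfer RNAs carry amino acids to the ribosome and read the codons of the messenger RNA through their anticodon. Glycine is coded by the codons that begin with GG. Of these, the GCC anticodon reads those ending in C or U, CCC the one ending in G and TCC mainly the one ending in A. Ribonucleases such as angiogenin cut mature tRNAs in the anticodon loop, and fragments of the 5′ side of Gly-GCC and Glu-CTC are known as abundant small RNAs of serum, plasma, sperm and extracellular vesicles. In mouse sperm, Gly-GCC fragments are known to change with paternal diet and to repress genes driven by an endogenous retrovirus in embryos. The tables record neither the length nor the position of the reads, so the part of the tRNA each read came from is unknown. An isodecoder is a set of tRNAs with 1 anticodon and 1 body sequence, and a name such as Gly-GCC-2-4 gives the anticodon, the isodecoder and the gene copy. Copies of 1 isodecoder share their mature sequence, so the split of molecules between copies depends on how the reads were assigned and is uncertain. RefSeq (GRCm38.p6) annotates 28 nuclear glycine tRNA genes of 71 to 74 bases, 14 with GCC, 6 with CCC, 7 with TCC and 1 with ACC. The listed copies could not be matched to these genes one by one. Levels are given as CPM, UMIs per 1000000 tRNA UMIs, a count of molecules that was not scaled by length.

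Glycine tRNAs made up a smaller share of the small RNA in the MI libraries than in the sham libraries. The MI libraries held 251299 and 185273 glycine UMIs, and the sham libraries held 671979 and 296266. Glycine was 51.6% and 61.4% of tRNA UMIs in the MI libraries and 69.2% and 62.9% in the sham libraries. Both MI libraries lay below both sham libraries, though MI replicate 2 and sham replicate 2 were close together. The share averaged 56.5 ± 6.97% in MI and 66.0 ± 4.46% in sham libraries (SD, n = 2 each), a difference of -9.55 percentage points (exact permutation test, two-sided, p = 0.333, the smallest p that 2 against 2 allows). The difference was -17.6 points between the first replicates and -1.47 points between the second, whose read sets carry a common tag of unknown meaning. Without MI replicate 1 it was -4.62 points, and without MI replicate 2 it was -14.5 points. The 95% Wilson interval of each share was at most 0.174 points to either side, which covers counting error only.

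Against all tabulated small RNA the groups lay further apart. Of the UMIs of miRNAs, piRNAs, tRNAs and other RNAs together, glycine tRNAs were 28.8% and 30.5% in the MI libraries and 44.1% and 39.7% in the sham libraries. The means were 29.7 ± 1.22% in MI and 41.9 ± 3.12% in sham libraries (SD, n = 2 each), a difference of -12.2 percentage points (exact permutation test, two-sided, p = 0.333). Leaving out any 1 library gave -14.4 to -10.0 points. The tRNAs other than glycine were 27.1% and 19.2% of the same UMIs in the MI libraries and 19.6% and 23.4% in the sham libraries, and their groups overlapped. For each miRNA UMI there were 1.15 and 1.37 glycine UMIs in the MI libraries and 1.78 and 1.85 in the sham libraries. All tRNAs together were 55.9% and 49.7% of these UMIs in MI and 63.7% and 63.1% in sham libraries. The class of other RNAs held 165222 of 872459 and 168798 of 606756 UMIs in the MI libraries. In the sham libraries it held 174647 of 1523731 and 114391 of 746567. These are shares of bulk libraries. Fewer vesicles that carry an RNA, less of that RNA per vesicle and more of other RNAs cannot be told apart.

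**Figure D1:**
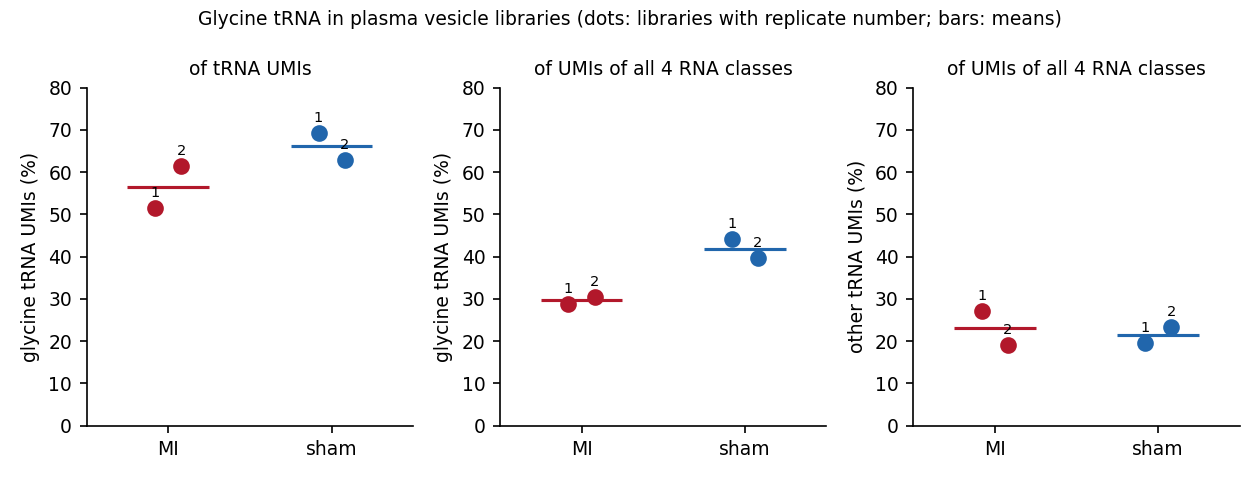
Glycine tRNA UMIs as a percentage of tRNA UMIs (left) and of the UMIs of all 4 RNA classes (middle), and the other tRNAs as a percentage of all 4 classes (right). Dots are libraries with their replicate number, bars are means of 2 libraries; both MI dots lie below both sham dots in the left and middle panels, and the groups overlap in the right panel.

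Several miRNA markers of the cells that feed plasma vesicles also differed between the groups without overlap, some higher and some lower in MI. With 2 libraries per group, this does not tie a marker to the glycine share. The share of all miRNAs that differed without overlap was not determined, so these marker differences have no background to be set against. The 4 red cell miRNAs, all listed in every library, summed to 37.8% and 38.3% of miRNA UMIs in the MI libraries and 34.9% and 31.9% in the sham libraries. Most of this sum was miR-16-5p, which many cell types express, at 32.7% and 33.8% in MI and 31.5% and 28.1% in sham libraries. The 3 others summed to 5.15% and 4.47% in MI and 3.43% and 3.73% in sham libraries, and of these miR-144-3p overlapped between the groups. The log2 ratio of miR-451a to miR-23a-3p, a common measure of red cell lysis, was -0.95 and -1.11 in the MI libraries and -1.95 and -1.92 in the sham libraries. This ratio was below 0 in all 4 libraries, and no threshold for lysis was applied. The liver miRNA miR-122-5p was 1.13% and 1.20% of miRNA UMIs in the MI libraries and 3.50% and 3.52% in the sham libraries. The 2 platelet and myeloid miRNAs summed to 1.97% and 2.29% in MI and 2.94% and 2.58% in sham libraries. The endothelial miR-126a-3p overlapped between the groups, at 1.34% and 1.59% in MI and 1.54% and 1.22% in sham libraries. The 3 muscle miRNAs summed to 0.540% and 0.606% in MI and 0.170% and 0.127% in sham libraries, and the heart-specific miR-208a-3p was unlisted in both sham libraries. The part of these sources in the glycine difference was not tested.

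Among all tRNAs, Gly-GCC had the highest mean level, followed by Glu-CTC, Glu-TTC, Gly-CCC and Asp-GTC. Gly-GCC had 504719 and 599887 CPM in the MI libraries, against 674527 and 614655 in the sham libraries, and the groups did not overlap. Glu-CTC, which reads a glutamate codon, had 406059 and 298927 CPM in the MI libraries, against 222933 and 302820 in the sham libraries, and these overlapped. There were 1.24 and 2.01 Gly-GCC UMIs per Glu-CTC UMI in the MI libraries and 3.03 and 2.03 in the sham libraries. In each library the 2 tRNAs together held most tRNA UMIs, so a higher share of one goes with a lower share of the other. With Glu-CTC left out of the total, a denominator chosen after seeing the data, glycine was 86.8% and 87.6% of tRNA UMIs in the MI libraries and 89.0% and 90.2% in the sham libraries, a difference of -2.42 points.

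**Figure D2:**
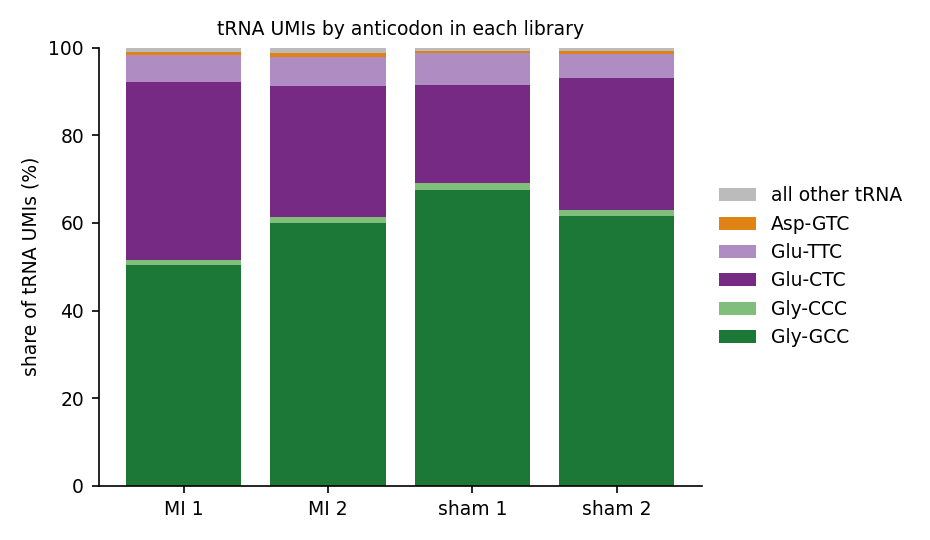
Share of tRNA UMIs, in percent, of the 5 anticodon sums with the highest mean level and of all other tRNAs, in each library. Gly-GCC is lowest in MI replicate 1, at 50.5%, and highest in sham replicate 1, at 67.5%, while Glu-CTC is at 40.6% in MI replicate 1 and 22.3% in sham replicate 1.

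Gly-CCC, the second glycine anticodon, lay far below Gly-GCC in every library. It had 10893 and 14285.1 CPM in the MI libraries, against 17329 and 14284.9 in the sham libraries. The second replicates were nearly equal, so the groups overlapped. Gly-CCC was 2.11% and 2.33% of glycine UMIs in the MI libraries and 2.50% and 2.27% in the sham libraries, and Gly-GCC was 97.9% and 97.7% in MI and 97.5% and 97.7% in sham libraries. Both shares overlapped between the groups (exact permutation test, two-sided, p = 0.667 for each, where 0.333 is the smallest possible).

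The anticodons TCC and ACC were at the edge of detection. Gly-TCC was unlisted in MI replicate 1, had 13 UMIs in MI replicate 2 and 73 in sham replicate 1, and was unlisted in sham replicate 2. Gly-ACC had 22 UMIs in sham replicate 1 and was unlisted in the 3 other libraries. Sham replicate 1 was the deepest library. For 1 entry, the 9 UMIs that a table can leave out were 18.5 and 29.8 CPM in the MI libraries. In the sham libraries they were 9.27 and 19.1 CPM. Gly-ACC at 22.7 CPM in sham replicate 1 therefore lay below the lowest level that MI replicate 2 could have listed. Gly-TCC is a sum over 4 listed copies, so its unlisted UMIs could exceed the floor of 1 entry. Of the 4 listed TCC copies, Gly-TCC-1-5 was the one listed in 2 libraries, with 13 UMIs in MI replicate 2 and 17 in sham replicate 1, and the others had 12 to 26 UMIs in sham replicate 1.

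In the fit across all 33 tested anticodon sums (edgeR's quasi-likelihood test, Benjamini-Hochberg adjustment, threshold 0.05), none of the 3 tested glycine anticodons passed. Over all anticodons 3.03% were called higher and 0.0% lower in MI. At an unadjusted p under 0.05, 0 glycine anticodons lay higher in MI and 0 lower, where 6.06% of all anticodon sums lay higher and 6.06% lower. Expressed as MI over sham, the log2 fold change was -0.54 for Gly-GCC (SE 0.34, adjusted p = 0.638) and -0.64 for Gly-CCC (SE 0.35, adjusted p = 0.490), against a median of -0.04 over all anticodon sums. In CPM 1 of the 3 did not overlap, Gly-GCC, lower in MI, where 12.1% of all anticodon sums lay lower and 33.3% higher without overlap. These folds depended on the scaling between libraries: with the tRNA total alone and no TMM factors they were -0.22 for Gly-GCC and -0.33 for Gly-CCC, beside a median of 0.22 over all sums. Relative to that median, the median of the glycine sums was -0.60 with TMM factors and -0.55 with the tRNA total. A change of scaling shifts all folds of a fit nearly alike, so this gap stays nearly constant by construction. Gly-GCC and Gly-CCC both passed with no low-count filter (edgeR adjusted p = 0.0485 and 0.0409) and with a filter of 10 UMIs in every library of 1 group (0.0189 and 0.0374). Gly-CCC also passed with unlisted entries at 9 UMIs (edgeR adjusted p = 0.0483). Under these settings 6.67%, 10% and 5.0% of all tested anticodon sums were called lower in MI.

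Of 13 glycine isodecoders, 11 were listed in all 4 libraries, and their levels spanned more than 3 orders of magnitude. Gly-GCC-2 had 406490 and 478952 CPM in the MI libraries, against 549042 and 503532 in the sham libraries, which is 78.8% and 78.0% of glycine UMIs in MI and 79.4% and 80.1% in sham libraries. Gly-GCC-4 had 58076 and 67898 CPM in MI, against 71702 and 63536 in sham libraries. Gly-GCC-1 had 24800 and 32684 in MI, against 30634 and 27029 in sham libraries. Gly-GCC-2 did not overlap between the groups, while Gly-GCC-4 and Gly-GCC-1 did.

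Below these came Gly-GCC-3, Gly-CCC-5, Gly-GCC-5, Gly-CCC-2, Gly-CCC-3, Gly-GCC-6, Gly-CCC-4 and Gly-CCC-1. Gly-GCC-3 had 12957 and 16520 CPM in MI and 19277 and 16784 in sham libraries. Gly-CCC-5, the main CCC isodecoder, had 7386 and 9800 in MI and 12379 and 9893 in sham libraries. It held 67.8% and 68.6% of Gly-CCC UMIs in MI and 71.4% and 69.2% in sham libraries. Gly-GCC-5 averaged 2666 ± 909 CPM in MI and 3359 ± 33.6 in sham libraries, and Gly-CCC-2 averaged 2111 ± 386 in MI and 2566 ± 242 in sham libraries (SD, n = 2 each), so the ranges of these neighbours overlapped across libraries, though Gly-GCC-5 was the higher in 4 of 4 libraries. The ranges also overlapped for Gly-GCC-6, the higher in 4 of 4 libraries, at 449 ± 106 in MI and 464 ± 34.4 in sham libraries, and Gly-CCC-4, at 362 ± 55.9 in MI and 441 ± 11.2 in sham libraries. Gly-CCC-3, between these pairs, averaged 1290 ± 211 in MI and 1520 ± 108 in sham libraries and overlapped neither neighbour.

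None of the 12 glycine isodecoders that were tested passed among 58 tested over all tRNAs, where 12.1% were called higher and 0.0% lower in MI (edgeR's quasi-likelihood test, Benjamini-Hochberg adjustment). At an unadjusted p under 0.05, 1 glycine isodecoder was higher, Gly-CCC-1, and 1 lower, Gly-GCC-2, where 15.5% of all isodecoders lay higher and 3.45% lower. Of the 12, 11 had a log2 fold change below 0, and the median of the 12 was -0.31, against a median of 0.21 over all isodecoders, 37.9% of which were below 0. The 58 include these 12. The fold was -0.29 for Gly-GCC-2 (SE 0.10, adjusted p = 0.238), -0.42 for Gly-CCC-5 (SE 0.18, adjusted p = 0.277) and 0.65 for Gly-CCC-1 (SE 0.22, adjusted p = 0.214). TMM factors were computed anew for anticodons, isodecoders and copies, so folds of different levels are not on 1 scale. Gly-GCC-3, which has 1 copy and thus the same counts at both levels, had -0.34 as an isodecoder and -0.47 as a copy. In CPM, 1 of the 12 lay higher in MI without overlap and 7 lower, where 31.0% and 20.7% of all isodecoders did so. Across 5 scalings the median log2 fold change of the glycine isodecoders minus that of all isodecoders was -0.51 to -0.46. A change of scaling shifts all folds of a fit nearly alike, so this narrow range follows by construction and is no check on the result.

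**Figure D3:**
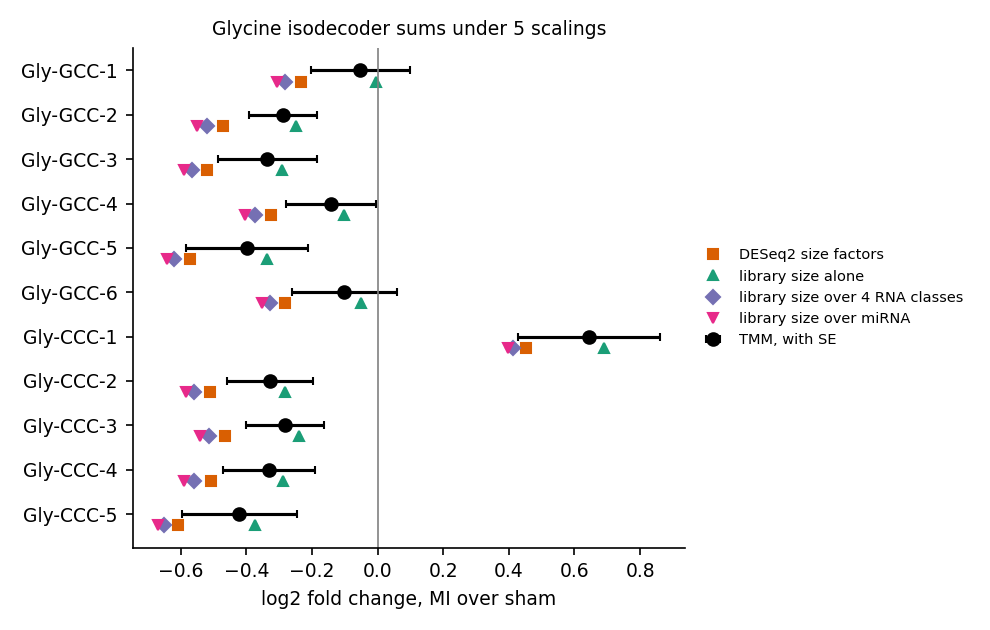
Log2 fold change, MI over sham, of the 11 glycine isodecoders listed in all 4 libraries under 5 scalings; the black points are the TMM fit with its SE, and the other symbols stand for the scalings of the legend. Gly-CCC-1 lies above 0 and all the others lie below 0 under each scaling, though Gly-GCC-1 is nearly at 0 (-0.0047) with library size alone.

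Under TMM, Gly-CCC-1 was the 1 tested glycine isodecoder with a log2 fold change above 0, though that of Gly-GCC-1 was near 0 (-0.05). It was rare, with 100 and 79 UMIs in the MI libraries and 163 and 57 in the sham libraries. It had 205 and 262 CPM in MI and 168 and 121 in sham libraries, with both MI libraries above both sham libraries. Within Gly-CCC, where no scaling between libraries enters, it was 1.88% and 1.83% of UMIs in MI and 0.969% and 0.847% in sham libraries. The means were 1.86 ± 0.0355% in MI and 0.908 ± 0.0859% in sham libraries (SD, n = 2 each), a ratio of 2.05 (exact permutation test, two-sided, p = 0.333). The molecules of Gly-CCC-1 had 9.98 to 11.1 reads per UMI, while those of Gly-CCC-2 to Gly-CCC-5, the rest of Gly-CCC, had 1.08 to 3.33. Counted in reads, Gly-CCC-1 was 9.55% and 9.08% of Gly-CCC in MI and 5.07% and 4.23% in sham libraries. Both gene copies lay the same way: Gly-CCC-1-1 had 92.3 and 113 CPM in MI and 68.0 and 53.1 in sham libraries, and Gly-CCC-1-2 had 113 and 149 in MI and 99.9 and 67.9 in sham libraries.

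At the level of gene copies, Gly-GCC-2-4 alone held 51.8% and 49.3% of glycine UMIs in the MI libraries and 48.6% and 50.5% in the sham libraries. It had 266985 and 302693 CPM in MI, against 336197 and 317370 in sham libraries, a log2 fold change of -0.38 (SE 0.20, edgeR adjusted p = 0.241). The other 7 copies of Gly-GCC-2, which share its mature sequence, ranged from 13965 to 37694 CPM in the MI libraries and from 17854 to 39920 in the sham libraries.

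Gly-GCC-2-2 had the most negative fold of the copies. It had 20424 and 25945 CPM in the MI libraries, against 35597 and 34104 in the sham libraries, without overlap. Its log2 fold change was -0.77 (SE 0.31, edgeR adjusted p = 0.0729). As a share of glycine UMIs it was 3.96% and 4.22% in MI and 5.14% and 5.42% in sham libraries, a mean difference of -1.19 points (exact permutation test, two-sided, p = 0.333). In reads this share was 3.71% and 3.98% in MI and 5.70% and 5.70% in sham libraries. It passed by the DESeq2 Wald test (adjusted p = 0.0259) and, in edgeR, where entries listed in all 4 libraries were tested alone (adjusted p = 0.0235), settings that called 0.813% and 9.62% of all tested entries lower in MI.

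None of the 22 tested glycine copies passed in the fit of 123 tRNA entries, of which 10.6% were called higher and 2.44% lower in MI (edgeR's quasi-likelihood test, Benjamini-Hochberg adjustment). At an unadjusted p under 0.05, 0 glycine copies were higher and 2 lower, Gly-GCC-2-2 and Gly-CCC-2-1, where 17.9% of all entries lay higher and 6.5% lower. Gly-CCC-2-1 had 185 and 192 CPM in MI, against 253 and 248 in sham libraries, a log2 fold change of -0.59 (SE 0.24, edgeR adjusted p = 0.0817). It passed where entries listed in all 4 libraries were tested alone (adjusted p = 0.0238), and its fold was 0.25 when reads were counted in place of UMIs. The fold was below 0 for 20 of the 22 copies, all but those of Gly-CCC-1, under TMM, with a median of -0.45 against 0.08 over all 123 entries, 47.2% of which were below 0. The 123 include these 22, and copies of 1 isodecoder share their mature sequence, so the copies are not independent. With the tRNA total alone, 19 of 22 were below 0. In CPM, 2 of the 22 lay higher and 12 lower in MI without overlap, where 32.5% and 22.8% of all entries did so.

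Within glycine, the shares of most copies overlapped between the groups. Of the 22 copies, 5 lay higher and 4 lower in MI without overlap as a share of glycine UMIs, where 21.1% and 19.3% of 114 tRNA entries did so as a share of their own amino acid's UMIs. The 5 higher were both copies of Gly-CCC-1, Gly-GCC-1-1, Gly-GCC-4-1 and Gly-GCC-6-1, and the 4 lower were Gly-CCC-2-1, Gly-GCC-2-2, Gly-GCC-2-3 and Gly-GCC-2-6. Gly-GCC-4, with 1 copy, was 11.3% and 11.05% of glycine UMIs in MI and 10.4% and 10.1% in sham libraries. Gly-GCC-1 was 4.81% and 5.32% in MI and 4.43% and 4.30% in sham libraries. Replicates differed beyond sampling noise in these shares. The chi-square over the 22 copies, divided by its degrees of freedom, was 19.9 for the MI pair and 32.3 for the sham pair. Between libraries of different groups it was 36.4 to 96.1. This measure grows with the UMIs compared, so it also reflects depth. Over the 22 copies, the SD of the log2 ratio of shares was 0.14 for the MI pair, 0.13 for the sham pair and 0.29 to 0.37 between groups. This SD gives rare and abundant copies equal weight. In every pair of different groups the largest ratio, 0.87 to 1.17, was that of a Gly-CCC-1 copy, and these copies had 25 to 97 UMIs.

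**Figure D4:**
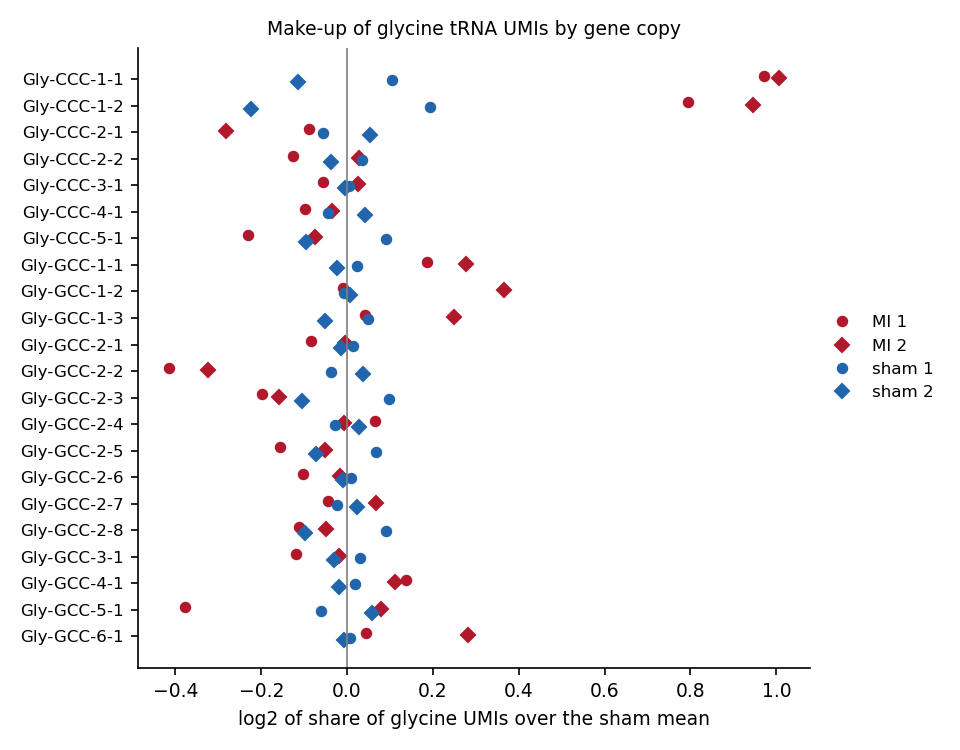
Share of glycine UMIs held by each of the 22 gene copies listed in all 4 libraries, as log2 over the sham mean, with circles for replicate 1 and diamonds for replicate 2. The MI points of both Gly-CCC-1 copies lie furthest to the right and those of Gly-GCC-2-2 lie left of its sham points.

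Glycine copies fell into 2 kinds by how often their molecules had been read. Over all glycine tRNAs there were 8.11 and 8.43 reads per UMI in the MI libraries and 9.42 and 8.18 in the sham libraries, with overlap (exact permutation test, two-sided, p = 0.667). Of the 27 copies, 11 had over 5 reads per UMI in every library that listed them, from 6.15 to 18.8, and 16 had under 5 in every one, from 1.08 to 3.66. The limit of 5 was set after the values were seen. The 11 were Gly-GCC-1-1, Gly-GCC-2-2, Gly-GCC-2-4, Gly-GCC-4-1, both Gly-CCC-1 copies and all 5 TCC and ACC copies. The 16 others held 29.4% and 31.5% of glycine UMIs but 6.67% and 7.35% of glycine reads in the MI libraries, and 32.7% and 30.9% of UMIs but 7.06% and 7.49% of reads in the sham libraries. Copies of 1 isodecoder stood on both sides: Gly-GCC-2-4 had 11.3 and 12.1 reads per UMI in MI and 14.0 and 11.6 in sham libraries, and Gly-GCC-2-5 had 1.20 and 1.21 in MI and 1.34 and 1.28 in sham libraries. Of 143 other tRNA entries, 93 lay over 5 and 22 under 5 in every library that listed them, and 13 of those 22 were among the 20 glutamate copies. With the copies over 5 reads per UMI alone in the sum, glycine was 36.4% and 42.1% of all tRNA UMIs in MI and 46.6% and 43.5% in sham libraries.

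**Figure D5:**
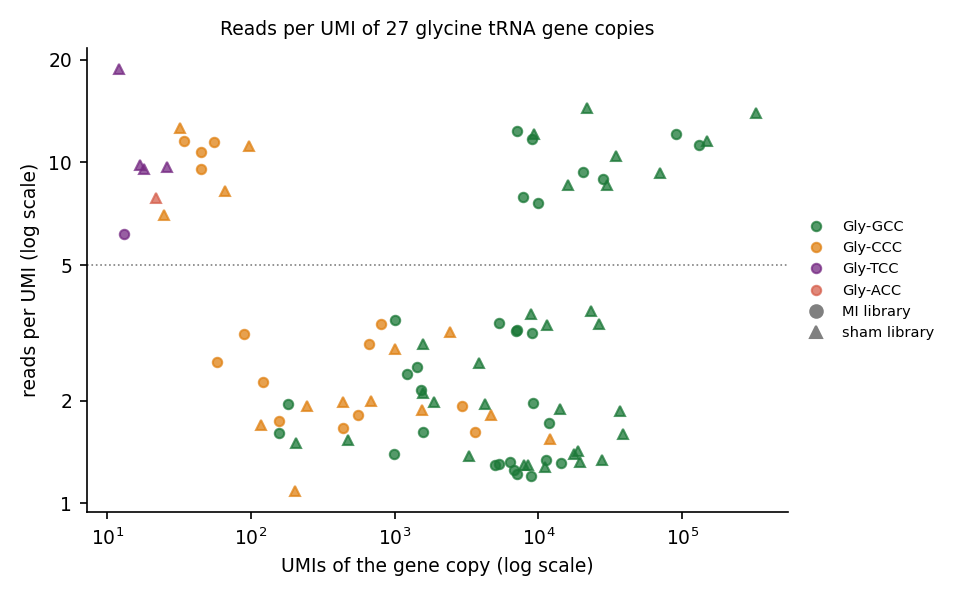
Reads per UMI against UMIs of each of the 27 glycine gene copies in each library that listed it, both on log scales, with circles for MI and triangles for sham libraries and colours for the anticodon. The dotted line at 5 reads per UMI separates 11 copies, from 6.15 to 18.8, from 16 copies, from 1.08 to 3.66.

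The anticodon whose profile over the 4 libraries was most like that of Gly-GCC was Gly-CCC, with a root mean square difference of 0.09 in centred log2 CPM, followed by Glu-TTC at 0.17 and Pro-CGG at 0.23. For Gly-CCC the nearest after Gly-GCC were Pro-CGG at 0.15 and Glu-TTC at 0.21. Over the 32 other anticodons the median difference was 0.47 from Gly-GCC and 0.54 from Gly-CCC. All profiles share the 4 libraries and their total. Of 10 other anticodons known as sources of fragments in serum and plasma, all 10 were tested, and 0 were called higher and 0 lower (edgeR's quasi-likelihood test, Benjamini-Hochberg adjustment). Their median log2 fold change was 0.04, against -0.04 over all 33 anticodon sums. Of these, 2 are given as examples picked after their values were seen: Val-CAC, which reads a valine codon, had 2996 and 3156 CPM in MI and 1358 and 1306 in sham libraries (log2 fold change 0.89, SE 0.31, adjusted p = 0.211), and His-GTG, the histidine tRNA, had 1219 and 653 in MI and 1537 and 1652 in sham libraries (-1.14, SE 0.36, adjusted p = 0.204).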

How the data were processed

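Per the labels' protocols, QIAseq miRNA libraries were made from vesicle RNA isolated by a Trizol method. The deposited values are raw counts of UMIs and of reads per entry, per the file headers, with no normalization recorded. No label or header used here names an aligner or genome build. The tables listed 99.85% to 99.96% of the tRNA reads of each library. Members and lists were chosen with earlier results of these data known. All glycine members could be named, and other tRNAs by rules on abundance and likeness of profile.

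UMIs were summed by isodecoder and by anticodon. All tRNA entries were fitted together at each level in R 4.3.3. Low entries were removed by filterByExpr (groups known, at least 10 UMIs, 15 in total). Libraries were scaled by TMM factors computed anew at each level. Quasi-likelihood F-tests came from edgeR 4.0.16, adjusted by Benjamini-Hochberg and called at 0.05. Tests were two-sided. SE is the absolute log2 fold change over the square root of F. Shares were compared with exact permutation tests. The fits were also run on simulated data with less spread between libraries than was estimated here, so that run does not show how they behave on these data. Alternatives included DESeq2 1.42.0, other scalings, filters and units, and a replicate block. In the headers, the read sets of both second replicates carry a common tag whose meaning is unknown.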

Additional observations from a re-analysis of the deposited data

How the results depend on the processing

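With 2 libraries per group no exact test of a share can pass, and the 10 UMI listing limit bounds what can be said of Gly-TCC and Gly-ACC. The number of glycine copies called, 0, was 1 by the DESeq2 Wald test and 2 where entries listed in all 4 libraries were tested alone, where 0.813% and 9.62% of all entries were called lower. The number of glycine anticodons called, 0, was 2 with no low-count filter, 2 with 10 UMIs required in every library of 1 group and 1 with unlisted entries at 9 UMIs; all these calls were lower in MI, as were 6.67%, 10% and 5.0% of all anticodon sums. Calls of glycine isodecoders stayed at 0 in every setting with all 4 libraries. Over all tRNAs these settings called 1 to 7 isodecoders higher and 0 to 2 lower in MI. Leaving out 1 library left 1 library in a group, so calls from those fits are not counted. The difference in the glycine share of tRNA UMIs ranged from -14.5 to -4.62 points when 1 library was left out and was -2.42 points without Glu-CTC in the total. The difference in the share of Gly-GCC among glycine was 0.172 points in UMIs (0.0486 to 0.296 leaving out 1 library) and -0.0419 in reads, and that of Gly-CCC was -0.169 (-0.285 to -0.0521) and 0.0471. Reads per UMI differed by -0.532, and by -1.15 to 0.0851 leaving out 1 library. The causes were not tested.

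Log2 fold changes that turned above 0 with reads in place of UMIs were those of the copies Gly-CCC-2-1 (0.25), Gly-CCC-4-1 (0.084) and Gly-GCC-6-1 (0.13) and of the isodecoders Gly-CCC-4 (0.15) and Gly-GCC-6 (0.18). With the tRNA total alone, Gly-GCC-1-1 was at 0.0091. Without MI replicate 1, the copies Gly-GCC-1-1 (0.018), Gly-GCC-1-2 (0.11) and Gly-GCC-6-1 (0.019) turned, and over the 4 libraries left out in turn their lowest values were -0.33, -0.52 and -0.48. The isodecoder Gly-GCC-1 was at 0.0058 without MI replicate 1, 0.094 without MI replicate 2, 0.033 without sham replicate 1 and -0.071 without sham replicate 2. Gly-GCC-6 ran from -0.11 to 6.295e-05 and Gly-GCC-4 from -0.17 to 0.092, above 0 without MI replicate 2. Gly-TCC-1 was at 0.099 with unlisted entries at 9 UMIs, 0.0024 without MI replicate 1 and -7.61 without MI replicate 2, where the remaining MI library did not list it, so that this fitted value depends on the prior count and is no bound. Of these folds, none from a fit of all 4 libraries was called. The labels give both groups replicates 1 and 2, but do not say that a number marks a shared animal or day. What the common tag on the read sets of the second replicates marks is unknown. With 2 pairs, the same-numbered deviations correlated at 0.11 over 123 entries. With the replicate block, 0 glycine members were called at each level. Over all tRNAs that fit called 17 of 123 entries higher and 3 lower in MI. It called 6 of 58 isodecoders higher and 1 lower, and 0 of 33 anticodon sums in either direction.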

Other observations

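Ratios between glycine tRNAs of 1 library need no scaling between libraries. For every 100 UMIs of Gly-GCC-2-4 there were 7.65 and 8.57 UMIs of Gly-GCC-2-2 in the MI libraries and 10.6 and 10.8 in the sham libraries. The same ratio for Gly-GCC-4-1 was 21.8 and 22.4 in MI and 21.3 and 20.02 in sham libraries. For every 100 UMIs of Gly-CCC-2 to Gly-CCC-5 together there were 1.92 and 1.87 UMIs of Gly-CCC-1 in MI and 0.978 and 0.854 in sham libraries. These ratios were chosen after the values were seen, and no explanation was tested. Without Gly-GCC-2-4 in the sum and the total, glycine was 33.9% and 44.7% of tRNA UMIs in MI and 53.6% and 45.6% in sham libraries.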
